A study of Mus musculus with 2 samples.

Results

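The cycling Pax7 myogenic progenitors were cells in which the UMIs (unique molecular identifiers, each counting 1 captured transcript) of muscle stem cell genes and of proliferation genes met in the same barcode. A barcode was kept when it held at least 1000 UMIs and at most 10% mitochondrial UMIs. It was taken as a cycling Pax7 progenitor when it had at least 1 UMI of Pax7, at least 1 of Myod1 and Myf5 together, at most 4 of Myog, at least 3 of Mki67 and Top2a together, and none of the endothelial genes Pecam1 and Cdh5. This rule was met by 795 of 22086 kept cells (3.60%).

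The cells came from mouse embryos at E14, decapitated and eviscerated, whose trunks and limbs were dissociated and sorted for the red reporter tdT. Myf5-Cre, a recombinase driven by the Myf5 promoter, turned on tdT and recombined floxed Srsf2 in the same lineage, which also holds cells other than muscle. Both genotypes carried Myf5-Cre and tdT. The library titled SRSF2f/f/Myf5-Cre/tdT stands for 2 floxed Srsf2 alleles, and the library titled SRSF2f/w/Myf5-Cre/tdT, the control genotype, for 1 floxed and 1 wild-type allele. Each was 1 library of 1 embryo sample, with no replicate, so that no difference between genotypes could be tested and every interval below is a 95% interval that covers counting error only.

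The sources gave opposite genotypes for these libraries. The sample titles put the larger library, of 15268 barcodes, in the f/f group and the smaller, of 12498 barcodes, in the f/w group, while the names of the deposited quality summaries and the study's own quality sheet assign that cell number the other way round. Groups here follow the titles, and the names "labelled f/f" and "labelled f/w" say no more than that. Srsf2 itself, which encodes a serine and arginine rich splicing factor, lies on chr11:116849901-116853094 of GRCm38 on the minus strand, where Mettl23 and Mfsd11 overlap it on the plus strand. In the cycling Pax7 progenitors it stood at 296 CPM (the usual scaling of counts to the total of the same cells) from 4331 UMIs in the library labelled f/f and at 196 CPM (120 UMIs) in the library labelled f/w. The log2 ratio was 0.59 (0.33 to 0.87), so the library whose label carries 2 floxed alleles had the higher level, against the direction its label gives. A UMI of Srsf2 was found in 97.9% of these cells labelled f/f and in 89.3% labelled f/w. The part of Srsf2 that is floxed was not established here, so a count of 3′ ends need not show the deletion.

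Pax7, a paired-box transcription factor, marks the progenitors that build fetal muscle and later become satellite cells. Myf5 and Myod1 are basic helix-loop-helix factors that commit such cells to the muscle fate, and Myog, which follows them, goes with exit from the cycle and with differentiation into fusing myocytes. Mki67 and Top2a encode proteins of the dividing nucleus that accumulate from DNA replication to mitosis.

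The libraries labelled f/f and labelled f/w held 156093779 and 128116615 UMIs, of which 12144 cells (79.5%) and 9942 cells (79.5%) were kept, with medians of 10957 and 9863 UMIs per kept cell. The cycling Pax7 progenitors numbered 767 of 12144 kept cells labelled f/f (6.32%, 5.89 to 6.76%) and 28 of 9942 labelled f/w (0.282%, 0.187 to 0.407%). The share was 22.4-fold higher in the library labelled f/f, a log2 ratio of 4.49 (3.94 to 5.03). If the labels are exchanged, the same ratio has the opposite sign between the genotypes. The other muscle cells measured here were rarer in the library labelled f/w as well. Pax7 progenitors with any number of Mki67 and Top2a UMIs made up 9.11% and 0.382% of kept cells, and Myog-high cells, with at least 10 UMIs of Myog and none of the cycle and endothelial genes of the rule, 2.66% and 0.191%. Cycling chondrocyte-gene cells, taken with the same cut on Mki67 and Top2a, at least 10 UMIs of Col2a1 and at least 1 of Sox9, and no Pax7, Myog, Pecam1 or Cdh5, made up 2.93% labelled f/f (356 cells) and 2.92% labelled f/w (290 cells), a log2 ratio of shares of 0.01 (-0.21 to 0.23). All shares are shares of cells inside the tdT gate.

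Among all Pax7 progenitors, cycling cells were 69.3% labelled f/f (66.5 to 72.1%, 767 of 1106) and 73.7% labelled f/w (56.9 to 86.6%, 28 of 38). These intervals cover the counting of cells in 1 library each, and no difference between the libraries was tested. The remaining progenitors were 142 cells labelled f/f and 5 labelled f/w without any UMI of Mki67 or Top2a, and 197 and 5 cells with 1 or 2. The cycling cells were the deeper ones, with medians of 17690 UMIs labelled f/f (lowest 5278, highest 102095) and 20886.5 labelled f/w (lowest 8755, highest 62748), against 11541.5 in the 142 non-cycling cells labelled f/f. Depth enters the rule itself, and with the rule applied to cells thinned to 5000 UMIs the cycling shares were 53.5% and 68.8%.

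**Figure D1:**
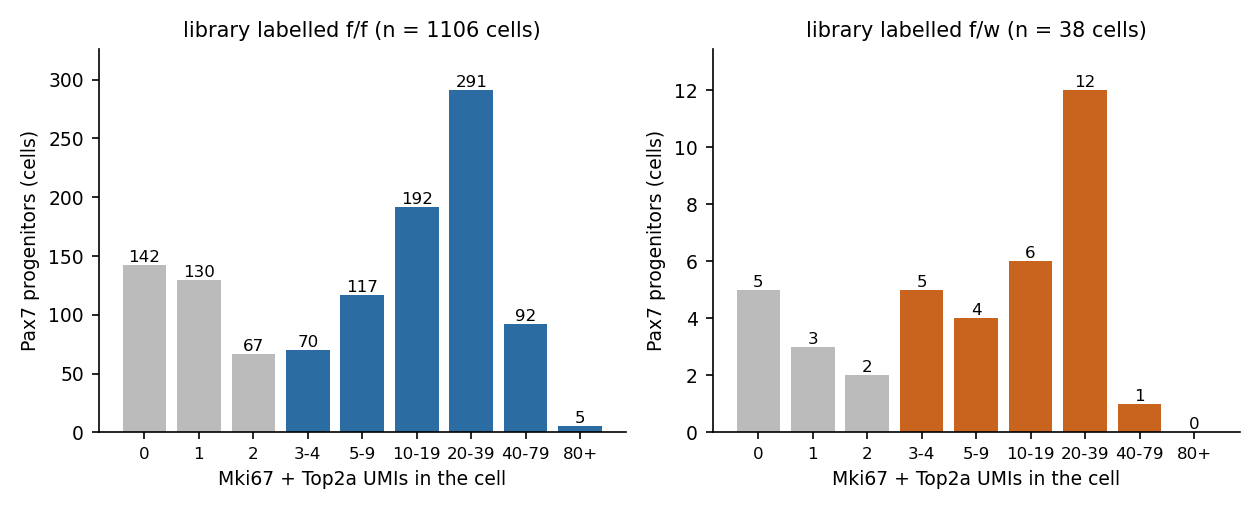
Number of Pax7 progenitors (vertical axis) by their summed UMIs of Mki67 and Top2a (horizontal axis), for the libraries labelled f/f (1106 cells, left) and labelled f/w (38 cells, right), each with its own scale, with grey bars below the cut at 3 UMIs and numbers of cells on the bars. Most of the 767 and 28 cycling cells lie well above the cut, and 142 and 5 cells have none.

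The plot of cycle UMIs shows that the cut at 3 divides a tail and not a gap. At the cut, 48 cells labelled f/f had exactly 3 UMIs of Mki67 and Top2a and 67 had 2, and their genes of G2 and mitosis stood at 1313 and 1034 CPM. At the Pax7 limit, 209 cells labelled f/f had 1 UMI, and 260 cells met all other criteria without a Pax7 UMI. Msc, a repressor made in muscle progenitors, was at 105 CPM in the former and at 89.6 CPM in the latter. At the Myog limit, 25 cells had 4 UMIs and 12 had 5, with fusion and contractile genes at 3129 and 2975 CPM. A further 116 cells labelled f/f lacked both Myod1 and Myf5, and 48 had a UMI of Pecam1 or Cdh5.

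The genes of the rule chose these cells, so their values describe the group and support nothing. Pax7 (chr4:139737062-139833528, minus strand) ranged from 1 to 12 UMIs per cell with a median of 2 labelled f/f, and from 1 to 11 with a median of 3 labelled f/w. Its summed level was 156 CPM and 144 CPM. Myf5 (chr10:107482908-107486134, minus strand) was detected in 60.8% and 75.0% of the cells at 64.6 and 99.5 CPM, and Myod1 (chr7:46376474-46379099, plus strand) in 84.1% and 71.4% at 170 and 130 CPM. Myog (chr1:134289989-134292548, plus strand) had a UMI in 28.3% and 21.4% of the cells. Mki67 (chr7:135689784-135716361, minus strand) reached 90 UMIs in a cell labelled f/f, with a median of 5, and Top2a (chr11:98992943-99024189, minus strand) reached 113, with a median of 14.

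Levels of muscle genes outside the rule are given as a description of the label. Msc had a UMI in 76.3% of the cells labelled f/f and 78.6% labelled f/w, against 5.13% and 0.545% of cells with at least 3 UMIs of Pecam1 and Cdh5, an endothelial gate of 448 and 1101 cells with median depths of 13803 and 17095 UMIs. Pax3, the paired-box gene of the early limb and trunk muscle precursor, was sparse, in 11.9% and 7.14% of the cells. Cdh15, which encodes M-cadherin, stood at 90.1 CPM in the cycling Pax7 progenitors and 3.33 CPM in cycling chondrocyte-gene cells labelled f/f. Mstn, which encodes the growth inhibitor myostatin and was among the genes with the highest ratios of that comparison, stood at 34.9 and 0.72 CPM.

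Markers of other cells were present, at summed levels below those over all kept cells for each list in each library, although neuronal genes labelled f/w came close (504 against 505 CPM). Chondrocyte markers stood at 817 CPM labelled f/f and 272 CPM labelled f/w, against 4361 and 4727 CPM over all kept cells, with Col2a1, the main cartilage collagen, the most abundant at 415 and 116 CPM, and 3 or more of 6 chondrocyte genes had a UMI in 51.5% and 53.6% of the cells, against 53% of all kept cells labelled f/f (6435 of 12144) and 56.4% labelled f/w (5611 of 9942). Erythroid genes summed to 1033 and 79.9 CPM, led by Hbb-bs, and 1 cell held 54.4% of the Hbb-bs UMIs labelled f/f. At the same time 3 or more erythroid genes had a UMI in 83 of the cells labelled f/f (10.8%), against 8.16% of all kept cells of that library. Mesenchymal genes summed to 170 and 78.3 CPM, led by Dcn and Col6a3, against 1018 and 816 CPM over all kept cells. Neuronal genes summed to 75.0 and 504 CPM, and 1 cell held 96.8% of the UMIs of the neuronal gene Stmn2 labelled f/w. Keratinocyte genes summed to 7.17 and 101 CPM, with 84.4% of the Krt14 UMIs labelled f/w in 1 cell. Endothelial, Schwann, immune and pericyte lists stayed between 0 and 14.3 CPM, with Kdr, Tie1, Cldn5, Sox10, Cdh19, C1qb and all 4 pericyte genes among those at 0 UMIs labelled f/w. With a cell called mixed at 3 or more genes of 1 of the 7 lists other than the chondrocyte and mesenchymal ones, 100 of 767 and 5 of 28 cells were mixed, and values without them are given in the comparison between the libraries. Doublets were not called, and 74 barcode sequences occurred in both libraries, of which 4 belonged to cycling Pax7 progenitors labelled f/f and 0 to those labelled f/w.

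Within the library labelled f/f, the highest ratios of cycling over non-cycling Pax7 progenitors among the muscle and cycle lists were those of cycle genes. Levels of 6857 genes with an expected count of at least 20 in the smaller group were compared as log2 ratios of CPM. A level at least 2-fold higher in the cycling cells was found for 4.74% of them (325 genes) and a level at least 2-fold lower for 0.0292% (2 genes). The lower genes numbered 8 with CPM taken without mitochondrial, ribosomal protein and haemoglobin genes, and 15 with an expected count of at least 10. Mki67 and Top2a separated the groups, so the other genes of the cycle belong to the same contrast and are given as description. The median ratio of all genes was 0.11.

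Among the muscle and cycle lists, the G2 and mitosis list showed the widest separation, with 38 of 40 genes at least 2-fold higher in the cycling cells. Its median ratio was 3.34, and its summed levels were 4169 against 666 CPM. Cdk1, the kinase that drives entry into mitosis, stood at 192 against 26.7 CPM (2.85, 2.43 to 3.31). Its partner cyclin gene Ccnb1 stood at 118 against 14.2 CPM (3.05). Aurkb, the kinase of the chromosomal passenger complex, had 988 UMIs (67.4 CPM) in the cycling cells and 1 UMI in the others. Cenpf and Hmmr, which encode a kinetochore and a spindle protein, reached ratios of 4.60 and 5.08. The exceptions were Ccnb2 (0.30, -0.04 to 0.66), another mitotic cyclin gene, and Knstrn (0.55), which encodes a kinetochore protein. Esco2, which encodes the cohesin acetyltransferase and is among 9 proliferation genes the study named from these samples, had 1220 UMIs in the cycling cells and 0 in the others, a log2 ratio of 5.55 with the others set to a floor of 3 counts over the group, and an exact interval that starts at 5.25.

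Many promoters of mitotic genes carry a CHR element (cell cycle genes homology region), a short site that keeps them silent until late in the cycle. Its core, TTTGAA, or TTCAAA where read on the other strand, was searched in the 250 bases before the start sites that RefSeq gives for GRCm38.p6. Of the 40 G2 and mitosis genes, 33 had a promoter entry and 9 of these held the core (27.3%), against 16.0% of the 25 S phase genes with an entry, 21.4% of 14 myogenic factors (3 genes) and 18.3% of all 27025 genes in the table. Counted over promoters, 29.4% of 34 promoters of the list held it and 16.0% of all 32851. Among genes of the deposited counts, 16.8% of the 20267 with an entry and 14.6% of their 24834 promoters held the core. None of the 20 fusion and contractile genes with an entry did. A letter match is not a site in use. List genes outside these 9, without the core or without an entry, reached the highest ratios of cycling over non-cycling cells, such as Aurkb (6.83) and Hmmr (5.08). The 7 matches below are those with the highest ratios among the 9 genes with the core, from 4.89 for Kif11 and 4.62 for Ckap2l to 2.70 for Ube2c. They show the sequence around the core on the strand of the gene, with the core in capitals.
Kif11, a spindle motor, chr19:37376351-37376380, plus strand, 19 bases before the start: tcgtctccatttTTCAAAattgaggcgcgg
Ckap2l, a spindle protein, chr2:129297225-129297254, minus strand, 30 bases before the start: ttattggcgaatTTCAAAgtcgcggaagcc
Kif2c, a microtubule depolymerase, chr4:117178858-117178887, minus strand, 103 bases before the start: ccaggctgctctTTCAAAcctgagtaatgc
Ect2, an activator of cytokinesis, chr3:27153975-27154004, minus strand, 114 or 138 bases before its starts: ccgtttaccggaTTTGAAacacactcacaa
Cdc20, an activator of the anaphase-promoting complex, chr4:118437344-118437373, minus strand, 18 bases before the start: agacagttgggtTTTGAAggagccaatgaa
Cdk1, chr10:69352910-69352939, minus strand, 15 bases before the start: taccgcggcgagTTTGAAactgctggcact
Ube2c, a ubiquitin-conjugating enzyme of the same complex, chr2:164769888-164769917, plus strand, 29 bases before the start: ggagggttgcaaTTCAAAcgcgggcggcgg
Ckap2 and Ccnb2, with the core 101 and 167 bases before their starts, had lower ratios of 1.44 and 0.30, so genes with the core were not all among those that differed most.

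S phase genes separated far less than the mitotic ones. Of 31 genes, 11 were at least 2-fold higher in the cycling cells, with a median of 0.58 and summed levels of 3892 against 2452 CPM. This count and that of the chromatin and tubulin list below stand beside 4.74% of all genes compared. They describe groups chosen by cycle genes. Rrm2, a subunit of the enzyme that makes deoxyribonucleotides, stood at 143 against 22.5 CPM (2.67, 2.21 to 3.17), and the repressor gene E2f8 at 48.2 against 7.11 CPM (2.76). The genes of the replicative helicase were near 0, with Mcm2 at 0.06, Mcm4 at -0.12 and Mcm6 at -0.05, and Pcna, the polymerase clamp, was at 0.58. Progenitors without Mki67 and Top2a thus carried helicase transcripts at levels like those of the cycling cells. Of the chromatin and tubulin list, 3 of 12 genes were at least 2-fold higher, among them Hmgb2 (1563 against 455 CPM, 1.78).

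Few muscle genes differed by 2-fold between these groups, as few of all genes did (4.74% higher and 0.0292% lower), so nothing is read from these counts. None of 19 surface and niche genes, 11 Notch pathway genes and 10 fusion and contractile genes that could be compared passed 2-fold, with medians of 0.06, 0.04 and -0.06, and 1 of 20 myogenic factors did, Lbx1 (1.08, 0.21 to 2.11), a homeobox gene of migrating limb muscle precursors. Msc was at -0.36, and Gpx3, which encodes a secreted glutathione peroxidase, at -0.71 (-1.23 to -0.16). Cdkn1c, which encodes the CDK inhibitor p57 (chr7:143458339-143461050, minus strand), was abundant in both, at 6291 CPM in the cycling and 6743 CPM in the non-cycling cells (-0.10). The cycling cells therefore carried a CDK inhibitor transcript at nearly the level of progenitors without a UMI of Mki67 or Top2a. Those progenitors still held S phase genes at 2452 CPM, so the name non-cycling says no more than the missing UMIs. Srsf2 was somewhat higher in the cycling cells (296 against 217 CPM, 0.45, 0.29 to 0.60). The lowest ratios were those of Dancr (-1.25), a long non-coding RNA, and Pink1 (-1.01), a kinase of mitochondrial quality control.

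Haemoglobin genes also differed in this comparison, 4 of 4 with a median of 3.42, at summed levels of 1033 against 91.2 CPM for the erythroid list, with 1 cell holding 54.4% of the Hbb-bs UMIs of the cycling cells. Without cells carrying genes of other types, erythroid ones included, 291 genes were at least 2-fold higher and 3 lower in this comparison. Mitochondrial, ribosomal protein and haemoglobin genes together took 32.7% of the UMIs of the cycling cells, 37.3% in the non-cycling cells, 39.1% in the Myog-high cells and 27.5% in the cycling chondrocyte-gene cells labelled f/f. Leaving these genes out of the total moved every ratio against those 3 groups by -0.10, -0.14 and 0.11, and left 278 genes higher and 8 lower against non-cycling progenitors. The library labelled f/w had only 5 non-cycling progenitors, too few for this comparison.

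**Figure D2:**
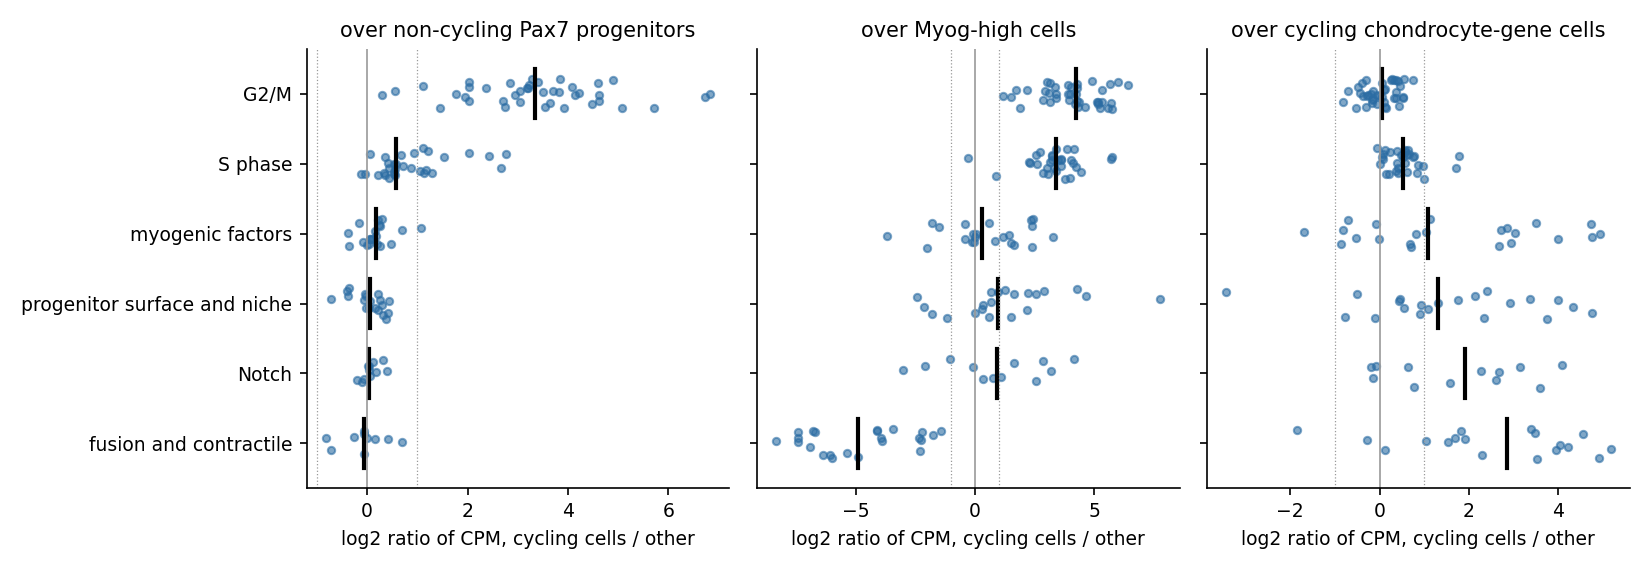
Log2 ratio of CPM (horizontal axis) of each gene (points) by gene list (rows), cycling Pax7 progenitors over non-cycling Pax7 progenitors, Myog-high cells and cycling chondrocyte-gene cells of the library labelled f/f, with black bars at the medians and dotted lines at 2-fold. G2 and mitosis genes have medians of 3.34, 4.21 and 0.05, and fusion and contractile genes of -0.06, -4.89 and 2.85.

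The plot of gene lists sets that comparison beside those with Myog-high cells and with cycling chondrocyte-gene cells. Relative to Myog-high cells labelled f/f, 22% of 9256 genes (2039) were at least 2-fold higher in the cycling Pax7 progenitors and 6.76% (626) at least 2-fold lower, with a median of all genes of 0.30. Myog, Mki67 and Top2a chose both groups. All 40 G2 and mitosis genes and 29 of 31 S phase genes were at least 2-fold higher (medians 4.21 and 3.37), counts that describe groups chosen by cycle genes and support nothing. Cdc6, a loader of the helicase, stood at 72.7 against 1.40 CPM (5.70, 4.57 to 7.15) and Clspn, a checkpoint mediator, at 138 against 2.57 CPM (5.75). The exception below 0 in the S phase list was E2f8 at -0.32.

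Fusion and contractile genes summed to 1183 CPM in the cycling progenitors against 16762 CPM in the Myog-high cells. The 23 of 25 genes with UMIs enough to be compared were at least 2-fold lower in the cycling progenitors (median -4.89), a count that supports nothing, since a gene could pass the count minimum through the Myog-high cells alone. Mymk and Mymx, which encode the membrane proteins of myoblast fusion, stood at 1.30 against 220 CPM (-7.41) and 3.55 against 607 CPM (-7.42). Myh3, the embryonic myosin heavy chain, had 17 UMIs in the 767 cycling cells and 1612 in the 323 Myog-high cells. Actc1, the cardiac actin that fetal muscle uses, was already at 264 CPM in the cycling progenitors and reached 4543 CPM in the Myog-high cells, and Ttn, the sarcomere's spring, 89.1 and 1563 CPM. In the library labelled f/w, where 14.2% of 2203 genes were at least 2-fold higher and 5.95% lower, genes could pass the count minimum through the group in which they were high alone, so numbers of list genes past 2-fold support nothing. The summed levels there were 3423 against 353 CPM for the G2 and mitosis list, 3663 against 470 CPM for the S phase list, and 1171 against 15928 CPM for fusion and contractile genes.

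Progenitor genes lay on both sides. The counts of this and the next lists stand beside 22% higher and 6.76% lower over all genes compared, and support nothing, since a gene could pass the count minimum through 1 group alone. Of 21 surface and niche genes, 10 were at least 2-fold higher in the cycling progenitors and 4 lower. Chodl, which encodes the membrane lectin chondrolectin, had 744 UMIs (50.8 CPM) against 1 UMI in the Myog-high cells labelled f/f. Labelled f/w it had 18 UMIs against 6 (0.66), below the count minimum. Labelled f/f, Gpx3 was at 4.26 and Dmrt2, a transcription factor of the embryonic myotome, at 4.65. Cdh15 (-1.17) and Megf10 (-2.13), a receptor of satellite cells, were higher in the Myog-high cells. Among 22 myogenic factors, 9 were at least 2-fold higher and 4 lower, with Msc at 124 against 12.8 CPM (3.27, 2.88 to 3.69) and Id3, an inhibitor of basic helix-loop-helix factors, at 1041 against 207 CPM (2.33), while Mef2c, a partner of Myog in differentiation, stood at 40.6 against 518 CPM (-3.67).

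Notch signalling keeps muscle progenitors undifferentiated, and its genes lay on both sides. The counts are read as those above, beside 22% higher and 6.76% lower over all genes. Of 12 genes compared, 6 were at least 2-fold higher in the cycling progenitors and 3 lower. The receptor gene Notch3 stood at 41.8 against 2.33 CPM (4.16), Lfng, which modifies the receptors, at a ratio of 3.17, and Hes1, a target, at 1.63. The ligand gene Dll1 went the other way, with 5.25 CPM in the cycling progenitors against 42.3 CPM in the Myog-high cells (-3.01), as did Hes6 (-2.09). Jag1, another ligand gene, was higher in the cycling progenitors (2.83).

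Of 8 CDK inhibitor and pocket protein genes, 4 were at least 2-fold higher and 3 lower, with the same limit on the count. Cdkn1a, which encodes p21, stood at 74.4 CPM in the cycling progenitors and 751 CPM in the Myog-high cells (-3.34, -3.44 to -3.24), and Cdkn1c at 6291 and 13685 CPM (-1.12). The pocket protein gene Rb1 was lower in the cycling cells (-3.29), and its relative Rbl1, with 296 UMIs against 2, higher (5.44, 3.57 to 8.49). Cdkn1a was lower in the cycling progenitors labelled f/w too (-3.33).

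Cycling chondrocyte-gene cells, chosen by the same cut on Mki67 and Top2a, gave a comparison in which the cycle was present on both sides. In the library labelled f/f, 7.22% of 10481 genes (757) were at least 2-fold higher in the cycling Pax7 progenitors and 14.1% (1483) at least 2-fold lower, with a median of 0.02. Of the 40 G2 and mitosis genes none passed 2-fold either way, 21 lay above 0, and the summed levels were 4169 and 4198 CPM. S phase genes were higher in the Pax7 progenitors for 30 of 31 genes, with a median of 0.52 and 3892 against 2669 CPM. Labelled f/w, the summed levels were 3663 against 2351 CPM, and the 24 S phase genes of the 31 that could be compared all lay above 0 (median 0.63). No share of all genes above 0 stands beside these counts. The S phase genes past 2-fold labelled f/f were Ccne1, the cyclin gene of the G1 to S transition, at 245 against 71.3 CPM (1.78, 1.65 to 1.92), and Cdc6 (1.70).

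Other cell cycle regulators differed in both directions. Ccnd1 and Ccnd2, D-type cyclin genes of G1, were lower in the Pax7 progenitors (50.7 against 196 CPM, -1.95, and 131 against 424 CPM, -1.69), and Ccnd3, the D-type cyclin gene that muscle uses, was higher (1.07). Cdkn1a was lower (74.4 against 306 CPM, -2.04) and Cdkn1c higher (6291 against 3981 CPM, 0.66). Of 11 stress and immediate early genes, 5 were at least 2-fold lower and 3 at least 2-fold higher, with a median of -0.91, such as Fos at 317 against 1069 CPM (-1.75). In the library labelled f/w, where 3.45% of 4087 genes were at least 2-fold higher and 18.6% lower, Cdkn1a was at -2.92 and the stress list at a median of -0.89.

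Among muscle genes labelled f/f, 12 of 22 myogenic factors, 12 of 21 surface and niche genes, 7 of 12 Notch genes and 15 of 18 fusion and contractile genes were at least 2-fold higher in the Pax7 progenitors. These counts support nothing, since a gene could pass the count minimum through the Pax7 progenitors alone. Summed levels were 2782 against 1951 CPM for myogenic factors, 1380 against 1333 CPM for surface and niche genes and 454 against 255 CPM for Notch genes. Among the highest, beside Mstn, were Mrln (5.56), which encodes the calcium pump inhibitor myoregulin, Fitm1 (5.19), a lipid droplet protein, Myh8 (5.17), the perinatal myosin heavy chain, Vgll3 (5.07), a co-factor of TEAD factors, Rapsn (5.06), which clusters acetylcholine receptors, Msc (4.93) and Neb (4.90), the giant protein of the thin filament. The lowest were cartilage genes, such as the matrix gene Matn1 (24.6 against 707 CPM, -4.84) and Hapln1 (-4.70), the link protein of proteoglycans. Contractile transcripts at 1183 CPM thus lay above the 129 CPM of cycling chondrocyte-gene cells and far below the 16762 CPM of Myog-high cells. Sdc4, a syndecan listed as a satellite cell gene, was lower in the Pax7 progenitors (-3.43).

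Cells were next placed within the cycle by genes the rule did not use. Each cell was thinned to 5000 UMIs, and UMIs of the 40 G2 and mitosis genes were taken as a share of those of this list and of the 31 S phase genes together. This G2/M share was 50.1% (49.6 to 50.7%) in the cycling Pax7 progenitors labelled f/f and 45.4% (42.3 to 48.5%) labelled f/w, and 51.7% and 48.3% before thinning. With the rule itself applied to thinned cells it was 52.4% and 54.0%, so the order of the libraries turned with that choice. It was 22.1% in 141 non-cycling progenitors and 25.4% in the 197 progenitors with 1 or 2 cycle UMIs labelled f/f, and 61.2% and 62.2% in the cycling chondrocyte-gene cells. Mki67 and Top2a accumulate toward mitosis, so the cut on them favours late phases. The higher share than in progenitors with fewer such UMIs therefore follows in part from the rule and supports nothing. The S phase list had a median of 19 UMIs per thinned cell labelled f/f (2 to 62) and 20 labelled f/w (4 to 37), against 12 and 11 in the cycling chondrocyte-gene cells. The G2 and mitosis list had medians of 19 (0 to 64) and 12 (0 to 46), against 18.5 and 18. The cycling Pax7 progenitors thus held more S phase UMIs per thinned cell than the chondrocyte-gene cells of either library.

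**Figure D3:**
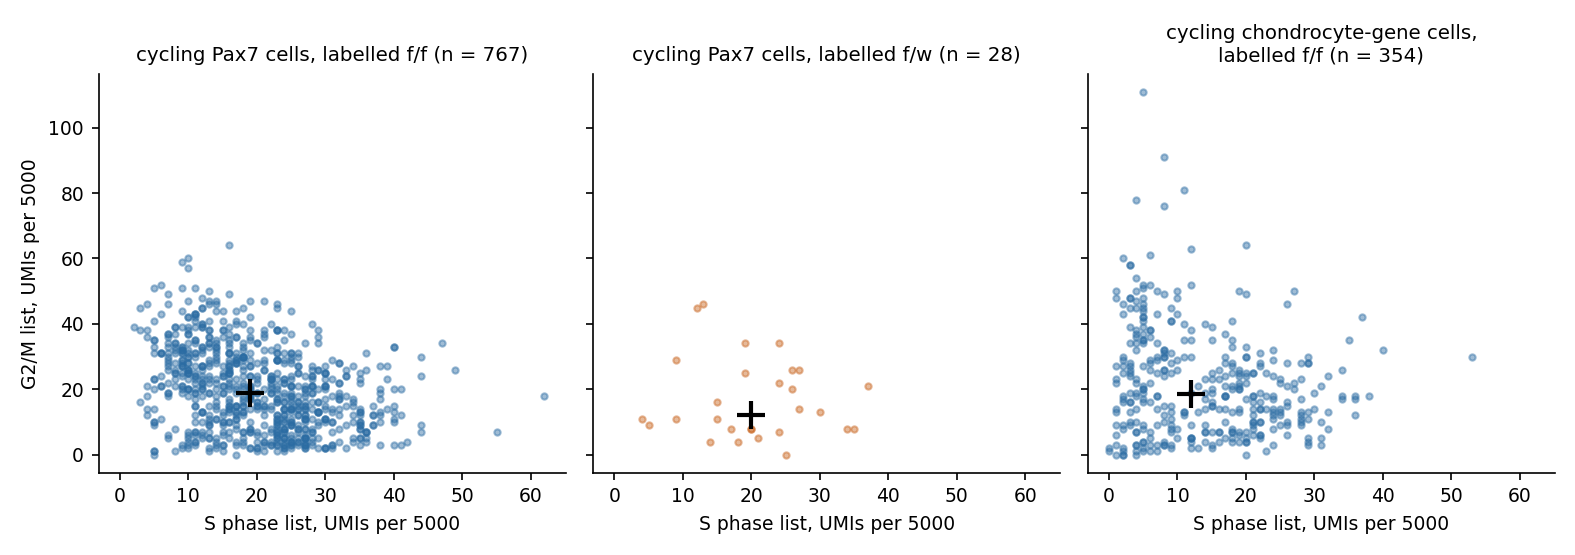
UMIs of the G2 and mitosis list (vertical axis) against UMIs of the S phase list (horizontal axis) in each cycling Pax7 progenitor thinned to 5000 UMIs, labelled f/f (767 cells) and labelled f/w (28 cells), and in 354 cycling chondrocyte-gene cells labelled f/f, with a cross at the medians. Both lists have a median of 19 UMIs in the progenitors labelled f/f, which fill the range between replication and mitosis without a gap.

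In the plot of both lists the cells form a continuum, so a division is a range and not a type. With cuts at a G2/M share of 1 in 3 and 2 in 3, 223 cells labelled f/f (29.1%) lay in a replication range, 358 (46.7%) in a middle range and 186 (24.3%) in a mitosis range, and 202 of 767 cells lay within 5 percentage points of a cut. The cells labelled f/w numbered 11, 13 and 4. Cdkn1a stood at 93.4 CPM in the replication range and 43.7 CPM in the mitosis range labelled f/f (log2 ratio 1.09, 0.82 to 1.37), and Myod1 at 182 and 132 CPM (0.46, 0.29 to 0.63). Pax7 (-0.21, -0.37 to -0.04) and Myf5 (-0.28, -0.53 to -0.02) lay slightly the other way. All 3 are genes of the rule. Labelled f/w the intervals of Myod1 (-0.18, -1.23 to 0.92) and Pax7 (-0.11, -1.02 to 0.84) held 0, and Myf5 was at -1.21 (-2.23 to -0.23) from 16 and 23 UMIs. Srsf2 (-0.04, -0.16 to 0.09), Cdkn1c (-0.05) and Myog (-0.05) differed little between the ends labelled f/f. Labelled f/w, Cdkn1c stood at 5047 CPM in the 11 cells of the replication range and 3088 CPM in the 4 of the mitosis range (0.71, 0.54 to 0.88).

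The cycling Pax7 progenitors also varied in how far the muscle programme had begun. In the library labelled f/f, 550 cells (71.7%) had no UMI of Myog, 166 (21.6%) had 1 or 2 and 51 (6.65%) had 3 or 4, with median depths of 17333.5, 18216.5 and 19933 UMIs. Labelled f/w the numbers were 22, 6 and 0. Summed fusion and contractile genes stood at 936, 1426 and 2797 CPM over these steps, so cells with 3 or 4 UMIs of Myog held 1.58 more on the log2 scale (1.52 to 1.64) than cells with none. Actc1 stood at 175, 330 and 922 CPM (2.40, 2.28 to 2.51), and Chrna1, the acetylcholine receptor subunit gene, at 3.04, 8.54 and 33.3 CPM (3.46, 2.72 to 4.20). Ttn (2.36), Tnnt1 (1.29), the slow troponin T gene, and Ryr1 (1.56), the calcium release channel gene, were higher as well. Mylpf and Acta1, a myosin light chain and the skeletal actin gene, had ratios of 0.33 and 0.33 whose intervals held 0, and Myh3 had 10 UMIs in the cells without Myog and 0 in the top step.

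**Figure D4:**
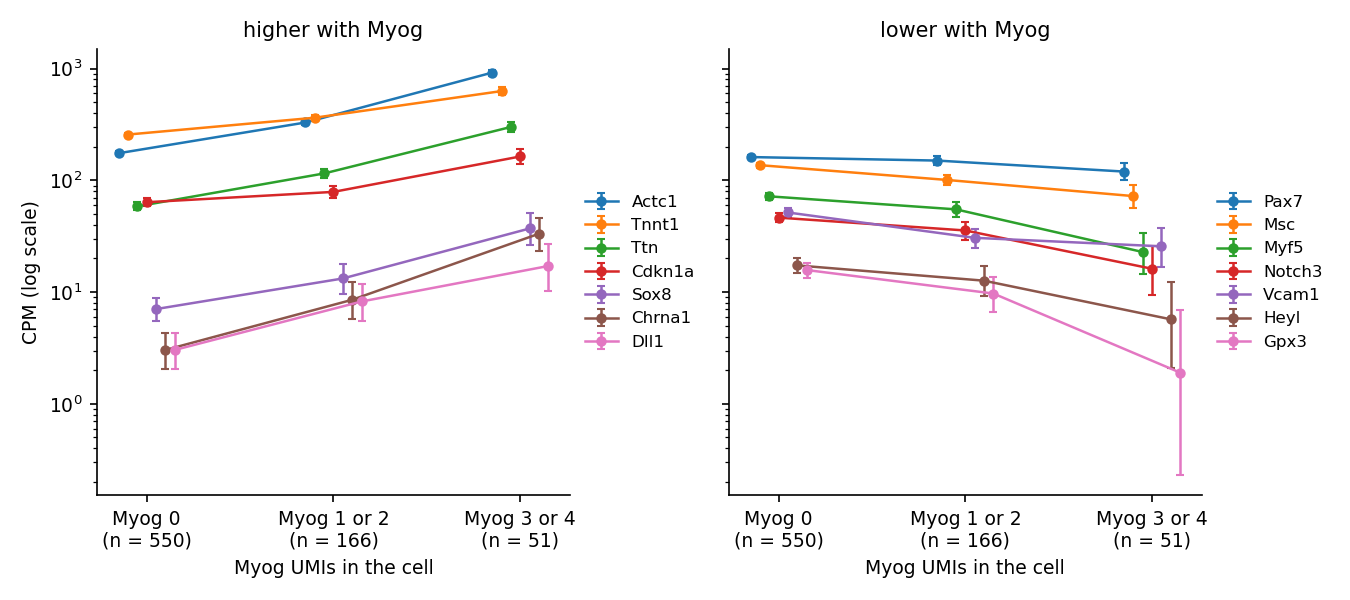
CPM (vertical axis, log scale) of 7 genes higher with Myog (left) and 7 lower (right) in cycling Pax7 progenitors labelled f/f with 0, 1 or 2, and 3 or 4 UMIs of Myog (horizontal axis), with counting intervals as bars. Actc1 goes from 175 to 922 CPM and Cdkn1a from 63.8 to 164 CPM, while Myf5 goes from 72.0 to 22.8 CPM.

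The plot of Myog steps also holds genes that were lower in cells with Myog. Myf5 stood at 72.0 CPM without Myog and 22.8 CPM in the top step (-1.66, -2.31 to -1.07), Notch3 stood at 46.4 and 16.2 CPM (-1.52), Heyl, a Notch target, at 17.3 and 5.71 CPM (-1.60), and Msc at 137 and 72.3 CPM (-0.92). Pax7 itself was at 162 and 120 CPM (-0.43, -0.70 to -0.17). Surface genes went both ways. Vcam1, an adhesion molecule, stood at 51.6 and 25.7 CPM and Chodl at -1.24, while Megf10 (0.87, 0.45 to 1.28) and Erbb3 (0.85, 0.28 to 1.37), a neuregulin receptor gene, were higher with Myog and the interval of Cdh15 (0.27, -0.03 to 0.55) held 0. Dll1, from 3.04 to 17.1 CPM (2.50, 1.57 to 3.38), Hes6 (0.98) and Sox8 (2.40), a transcription factor of satellite cells, were higher with Myog. The direction of Notch3 and Dll1 was that of the comparison with Myog-high cells.

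The cycle lists differed far less over the same steps. The S phase list had a ratio of 0.05 (0.01 to 0.10), the G2 and mitosis list of 0.27 (0.22 to 0.31) and Mki67 of 0.08 (-0.07 to 0.23) between cells with 3 or 4 UMIs of Myog and cells with none. Cdkn1a, in contrast, stood at 63.8, 78.9 and 164 CPM (1.36, 1.11 to 1.60) and Cdkn1c at 6068 and 7889 CPM (0.38). Every cell of every step had entered with at least 3 UMIs of Mki67 and Top2a, so cycle transcripts in all steps follow from the rule. Each step is a set of cells of 1 library, so this is a description.

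Myf5 and Myod1 divided the cells along a similar line. Labelled f/f, 122 cells (15.9%) had UMIs of Myf5 and not of Myod1, 301 (39.2%) of Myod1 and not of Myf5, and 344 (44.9%) of both, against 8, 7 and 13 cells labelled f/w. Fusion and contractile genes stood at 612 CPM in the cells with Myf5 alone and 1612 CPM in those with Myod1 alone (-1.40, -1.48 to -1.31), with Actc1 at 80.4 and 421 CPM (-2.39). Pax3 was at 14.5 and 5.59 CPM (1.38, 0.61 to 2.15), Heyl at 1.05, Notch3 at 0.71, Msc at 0.48 and Pax7 at 0.28. The G2 and mitosis list was alike in both classes (0.00), and the S phase list was lower in the cells with Myf5 alone (-0.36). A missing UMI of Myf5 or Myod1 does not show that a cell lacks the transcript.

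Between the libraries, the cycling Pax7 progenitors that were present resembled each other in most genes. Of 3949 genes compared, 2.51% (99) were at least 2-fold higher labelled f/f and 0.329% (13) at least 2-fold lower, with a median of 0.02. Without cells carrying genes of other types these were 66 and 5 genes, and with the mean over cells of scaled counts 86 and 7. With 28 cells labelled f/w, a few cells could decide a gene. The same ratio is therefore given in the cycling chondrocyte-gene cells, where 0.837% of 10634 genes were at least 2-fold higher labelled f/f and 2.29% lower.

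Cell cycle genes are given as a description, since the cells were chosen by such genes and the order of the libraries in the G2/M share turned with the rule on thinned cells (52.4% labelled f/f and 54.0% labelled f/w). The median ratio of 34 G2 and mitosis genes was 0.45, with 29 above 0 and 1 past 2-fold, Ckap2 (1.15), and that of 28 S phase genes 0.13, with Mcm2 past 2-fold (56.8 against 24.5 CPM, 1.21). In the cycling chondrocyte-gene cells the G2 and mitosis median was 0.23 with 37 of 40 above 0. Of the muscle lists, none of 14 myogenic factors passed 2-fold. Fgfr4, a growth factor receptor gene of fetal muscle (1.06), did among 11 surface genes and Notch1 (1.04) among 5 Notch genes. Actc1 of the fusion and contractile genes passed it too. These counts stand beside 2.51% higher and 0.329% lower over all genes compared, and nothing is read from them. Of 6 fusion and contractile genes compared, 3 lay above 0 and 3 below, and the summed levels of the list were 1183 and 1171 CPM. Actc1 was at 264 against 109 CPM (1.28, 0.93 to 1.65), and Acta2, the smooth muscle actin gene, at 214 against 404 CPM (-0.92, -1.10 to -0.72). Without mixed cells Actc1 was at 0.93, Fgfr4 at 0.74 and Notch1 at 1.10. Cdkn1c was at 6291 against 4449 CPM (0.50), and Cdkn1a at 74.4 against 58.7 CPM, with an interval that held 0 (0.34, -0.14 to 0.86). The 12 SR protein genes had a median of -0.01, and Srsf2 the highest ratio among them.

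**Figure D5:**
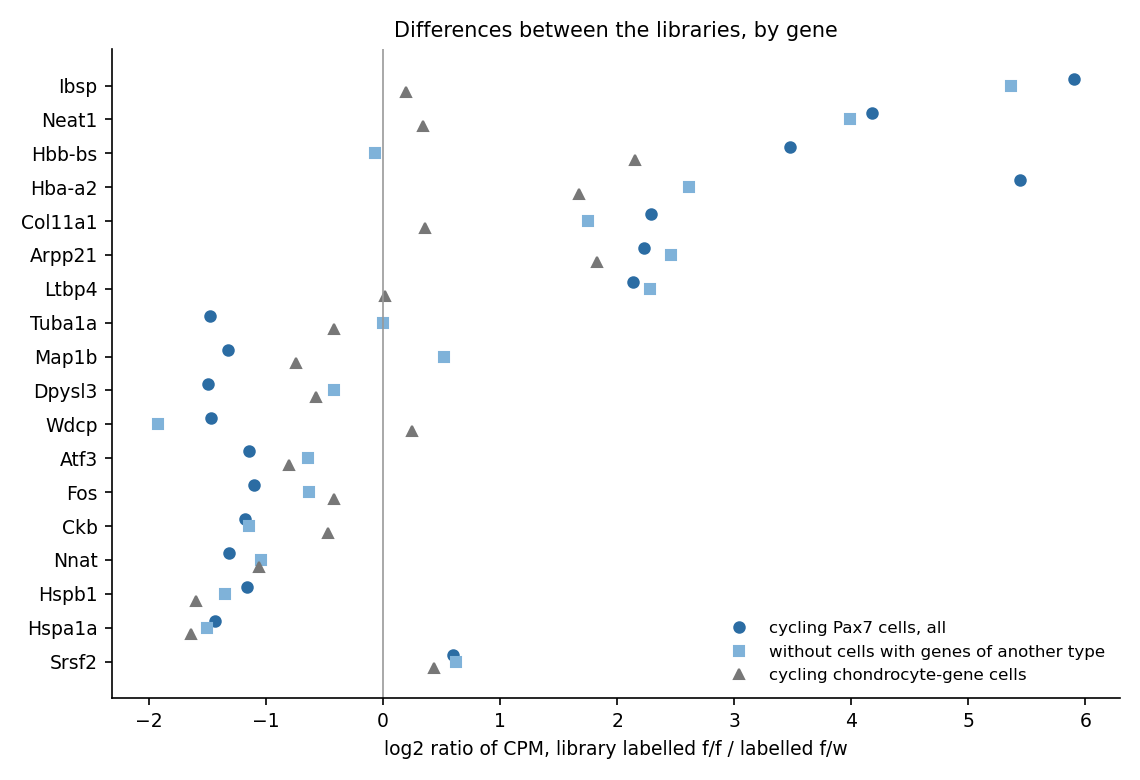
Log2 ratio of CPM, labelled f/f over labelled f/w, of the named genes in the cycling Pax7 progenitors (767 and 28 cells), without cells that carry genes of other cell types (667 and 23 cells), and in cycling chondrocyte-gene cells (356 and 290 cells). Hspa1a, Hspb1 and Nnat lie below -1 in both populations, while Tuba1a moves from -1.48 to 0.00 without the mixed cells.

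Of 10 stress genes compared, 8 lay below 0, on the side of the library labelled f/w, 4 of them past 2-fold, with a median of -0.59. Of 8 glycolysis genes, 7 lay below 0 and none past 2-fold (median -0.31). Over all 3949 genes, 0.329% were at least 2-fold lower and 2.51% at least 2-fold higher. The counts below 0 are given without a share over all genes and only describe the lists. Hspa1a, an inducible heat shock chaperone, stood at 38.7 CPM labelled f/f and 104 CPM labelled f/w (-1.43, -1.81 to -1.04), Atf3 at 144 and 318 CPM (-1.14), Fos at 317 and 682 CPM (-1.11) and Junb at 123 and 254 CPM (-1.05). Without mixed cells these ratios were -1.51, -0.64, -0.63 and -0.69, and without the cell of each library with most UMIs of the gene -1.35, -0.70, -0.62 and -0.64, so that Hspa1a alone of the 4 stayed past 2-fold. Hspb1, a small heat shock protein, stood at 230 and 517 CPM (-1.17), and Nnat, an imprinted membrane protein, at 204 and 507 CPM (-1.32). Without those top cells Hspb1 was at -0.97 and Nnat at -0.86. All 11 stress genes lay below 0 in the cycling chondrocyte-gene cells (median -0.45), with Hspa1a at -1.64. Of the 10634 genes compared there, 2.29% were at least 2-fold lower and 0.837% at least 2-fold higher. In the Myog-high cells, 323 labelled f/f and 19 labelled f/w, 9 of 9 lay below 0 (median -1.29). No share of all genes below 0 stands beside either count, and nothing is read from them. The study names 4 of these 11 genes from these samples, so the list's direction is not independent evidence. Handling and genotype cannot be told apart with 1 library of each, and this direction, like every one between the libraries, follows titles that the Srsf2 level goes against.

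The plot of ratios between libraries shows which genes rested on few cells. Tuba1a, Map1b and Dpysl3, genes of the neuronal cytoskeleton, were at -1.48, -1.32 and -1.50, and at -0.00, 0.52 and -0.42 without cells carrying genes of other types. Wdcp went from -1.47 to -0.04 without its top cells, of which that labelled f/w held 67.2% of the UMIs. Among genes higher labelled f/f, Hbb-bs went from 3.48 to -0.07 without the mixed cells. Hbb-bs is itself among the erythroid genes that call a cell mixed, so this drop follows from the filter and supports nothing. Ibsp, which encodes bone sialoprotein, had 4289 UMIs against 3 (5.90, 4.35 to 8.18), and 1 cell held 60.9% of the former. The UMIs left in the other cells still outnumber those labelled f/w, so that cell does not account for the whole difference. In the cycling chondrocyte-gene cells Ibsp was at 0.20. Neat1, a nuclear long non-coding RNA, had 1734 UMIs against 4 (4.18, 2.82 to 6.06), and was at 3.99 without the mixed cells and at 0.34 in the cycling chondrocyte-gene cells.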

How the data were processed

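Single cells had been captured with 10x Genomics 3′ chemistry. The authors mapped reads to mm10 without introns, counted UMIs per gene with Cell Ranger 5.0.0, as the header of the deposited counts states (the submitters' processing notes list Cell Ranger 3.1.0, STAR and Seurat 3.1.1), and merged the libraries after evening out their reads per cell. The deposited counts are whole UMIs of 32285 genes in 27766 barcodes. Summaries list 571426356 and 575393483 reads with a saturation of 39.5% and 45.9% for the libraries labelled f/f and labelled f/w. Barcode suffixes were matched to libraries by the numbers of cells.

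UMIs were summed per library and cell group with Python 3.11.15, NumPy 2.4.6, SciPy 1.17.1 and pandas 2.3.3, scaled to CPM and compared as log2 ratios with exact conditional intervals, shares with Clopper-Pearson intervals. Genes with an expected count of at least 20 in the smaller sum were compared, and a fold of 2 was the call. The method was tested on simulated sums of cell groups, drawn without variation between cells. That test does not cover genes whose UMIs lie mostly in 1 or a few cells. With 1 library per label no test between genotypes, and no p-value, was used. Thinning drew UMIs at random. Genes were named from 26 lists and, per comparison, from those with the highest and lowest ratios among genes with at least 200 UMIs. The members and lists were chosen with earlier results of these data known. Coordinates are those of GENCODE for GRCm38, which matched 32235 gene identifiers (99.8%), and start sites and sequences those of RefSeq for GRCm38.p6. Some genes of the lists are not reported here by name.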

Additional observations from a re-analysis of the deposited data

How the results depend on the processing

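Over 109 alternatives of 15 results, 79 were scored as the same and 30 as moved. A share or log2 ratio was the same inside the main result's own interval, so for these the tally depends on interval width. The cycling share of Pax7 progenitors labelled f/w was 73.7%. It was scored the same at 83.9% (mitochondrial limit of 5%) and 60.5% (at least 5 cycle UMIs). Numbers of genes past 2-fold have no interval. Against Myog-high cells labelled f/f, 1808 at a count minimum of 50 was scored the same as 2665. Only 3 of the 15 results are log2 ratios that could change sign, and none did. No alternative was run for the share of promoters with the CHR core. The log2 ratio of shares between the libraries stayed between 4.10 and 4.63. The share of cycling Pax7 progenitors labelled f/f was 6.87% and 5.74% with at least 2 and 5 cycle UMIs, 4.53% with no Myog, 5.49% without cells that carry genes of other types (chosen after the data were seen) and 2.20% with the rule on cells thinned to 5000 UMIs (labelled f/w 0.128%). The cycling share of Pax7 progenitors labelled f/f became 75.4% and 63.0% with those cycle cuts and 53.5% on thinned cells. The G2/M share labelled f/f became 49.1% and 51.4% with those cuts, 52.4% with the rule on thinned cells (labelled f/w 54.0%, which turns the order of the libraries) and 51.7% without thinning. Numbers of genes past 2-fold moved with the count minimum and on thinned cells. With at least 50, at least 10 and thinned cells they were 159, 513 and 196 against non-cycling progenitors labelled f/f (327 in the report's setting), 142, 965 and 116 against Myog-high cells labelled f/w (443), 406, 1501 and 252 against cycling chondrocyte-gene cells labelled f/w (901), and 31, 319 and 14 between the libraries (112, and 71 without mixed cells). Against cycling chondrocyte-gene cells labelled f/f thinning gave 1474 (2240). The contractile ratio over Myog steps was 2.42 on thinned cells, where it rests on 1 cell with 3 or 4 UMIs of Myog against 678 with none, and 1.66 without mixed cells. The thinned settings hold fewer UMIs and so fewer genes, and the causes of the other moves were not tested. No paired analysis was possible because each genotype label has 1 library and no replicate numbers. With 28 cells labelled f/w, depth limits every ratio between libraries, and genes of low level could not be compared there.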

Other observations

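A UMI of a Y-linked gene without Xist was found in 84.4% of the cycling Pax7 progenitors labelled f/f and 85.7% labelled f/w, Xist without a Y-linked gene in 0 of 767 and 0 of 28, and neither in 15.4% and 14.3%.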
